A study of Homo sapiens with 8 samples.

Results

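The 10 genes described here set how a cell passes through G1: the inhibitors CDKN1A, CDKN1B, CDKN1C, CDKN2C and CDKN2D, the D cyclins CCND2 and CCND3, the kinases CDK4 and CDK6, and RB1. They were taken by symbol from the 64252 genes counted in 2 human lines of T-cell acute lymphoblastic leukaemia (T-ALL), 6T-CEM and J.gamma1. The members were selected on measured values, since their levels and their changes with knockdown in these libraries were known when the list was drawn up. Their values are therefore given as a description, with a standard error and no test.

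6T-CEM derives from CCRF-CEM cells, and J.gamma1 is a Jurkat derivative. Each line carried a control short hairpin RNA (sh-NC) or a hairpin against LDB1 (sh-LDB1), delivered in a lentiviral pLKO.1 vector and kept under puromycin, with 2 libraries in each of the 4 groups. The sequenced cells were puromycin-selected pools, and which of the hairpins against LDB1 they carried is not named in the sources used here. The study also read the cell cycle by propidium iodide flow cytometry, which was not analysed here. It shows that reading for Jurkat and 6T-CEM cells and names none for J.gamma1.

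D cyclins join CDK4 or CDK6 in G1 and start the phosphorylation of RB1, the retinoblastoma protein, which otherwise holds back the E2F transcription factors that switch on genes of DNA synthesis. INK4 proteins, among them CDKN2C (p18) and CDKN2D (p19), bind CDK4 and CDK6 and keep the cyclin away. Cip/Kip proteins, CDKN1A (p21), CDKN1B (p27) and CDKN1C (p57), bind cyclin-kinase complexes and inhibit CDK2 most strongly. In developing T cells CDK6 and CCND3 are the characteristic pair, and the INK4 gene CDKN2A is known to be deleted in both parent lines.

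For 8 of the members the RefSeq promoter table on GRCh38.p14 held a sequence, and for 7 of these it lay at the start of the Ensembl canonical transcript. The 250 bases before that start are printed 5′ to 3′ for 5 members. CDKN1B and CDKN2C are shown because they were higher with sh-LDB1 in both lines, CDKN2D and CCND3 because the lines went opposite ways, and CDK4 for its repeated word. Capitals mark CACGTG, the E-box word read by MYC and related factors, which is the same on both strands.
CDKN1B: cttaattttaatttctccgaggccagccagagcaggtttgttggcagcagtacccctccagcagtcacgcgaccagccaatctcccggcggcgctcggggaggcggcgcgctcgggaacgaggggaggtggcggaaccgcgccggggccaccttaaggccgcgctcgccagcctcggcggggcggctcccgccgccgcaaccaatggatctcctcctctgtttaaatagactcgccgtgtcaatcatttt
CDKN2C: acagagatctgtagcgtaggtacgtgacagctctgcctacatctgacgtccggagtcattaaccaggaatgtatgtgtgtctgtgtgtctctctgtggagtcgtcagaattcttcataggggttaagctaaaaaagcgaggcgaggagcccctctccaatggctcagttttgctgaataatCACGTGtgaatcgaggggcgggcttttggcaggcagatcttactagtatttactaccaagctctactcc
CDKN2D: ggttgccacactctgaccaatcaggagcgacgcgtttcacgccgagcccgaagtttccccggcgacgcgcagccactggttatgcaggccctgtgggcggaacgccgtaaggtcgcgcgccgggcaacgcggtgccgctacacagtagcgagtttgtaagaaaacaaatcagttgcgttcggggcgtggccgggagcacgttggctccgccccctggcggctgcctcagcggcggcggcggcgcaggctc
CCND3: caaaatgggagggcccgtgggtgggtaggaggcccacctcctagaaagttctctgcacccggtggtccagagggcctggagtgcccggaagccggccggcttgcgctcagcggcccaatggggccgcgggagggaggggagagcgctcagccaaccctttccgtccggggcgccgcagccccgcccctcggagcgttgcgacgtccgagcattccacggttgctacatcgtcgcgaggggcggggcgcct
CDK4: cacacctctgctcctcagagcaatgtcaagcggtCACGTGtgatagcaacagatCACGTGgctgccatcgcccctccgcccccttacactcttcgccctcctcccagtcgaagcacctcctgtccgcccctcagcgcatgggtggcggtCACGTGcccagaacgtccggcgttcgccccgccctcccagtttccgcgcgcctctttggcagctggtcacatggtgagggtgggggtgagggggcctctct
The windows lie at chr12:12717118-12717367 on the plus strand for CDKN1B, chr1:50969995-50970244 on the plus strand for CDKN2C, chr19:10568980-10569229 on the minus strand for CDKN2D, chr6:41941809-41942058 on the minus strand for CCND3 and chr12:57752311-57752560 on the minus strand for CDK4. CACGTG occurred 1 time before CDKN2C and 3 times before CDK4. Of all 35116 promoter windows of this length, 6.34% held the word and 28 held it at least 3 times. The E2F words TTTCCCGC, TTTGGCGC, TTTCGCGC and TTTGCCGC, the GATA word AGATAA and the ETS word CCGGAAGT were searched on both strands. None of these words was found in the 7 member windows, and 2.79%, 9.17% and 3.42% of all windows held an E2F, GATA or ETS word. These are matches of letters in a fixed window and carry no measurement of binding.

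Total counts per library lay between 26160492 and 30604977, and the replicates of a group correlated with r between 0.9939 and 0.9942 on the log2 scale. Levels are given as CPM, the count of a gene scaled to the library total, with TMM scaling over all 8 libraries. LDB1, the targeted gene on chromosome 10 from 102106489 to 102120368, stood at 107 and 111 CPM with sh-NC against 37.0 and 35.0 with sh-LDB1 in 6T-CEM. In J.gamma1 it stood at 60.2 and 58.8 CPM with sh-NC against 33.2 and 30.8 with sh-LDB1. It fell in both lines, by 1.60 and 0.89 on the log2 scale (edgeR adjusted p = 1.02e-09 and 3.68e-06). Of 7 T-lineage markers, 6 passed 1 CPM in 6T-CEM, where CD2 did not, and all 7 did in J.gamma1. Their summed level was 1371 to 1423 CPM with sh-NC and 1784 to 1818 with sh-LDB1 in 6T-CEM, and 1801 to 1846 and 2194 to 2247 in J.gamma1. Of 12 markers of other cell types 1 or 2 passed 1 CPM, with a summed level of 25.1 to 25.6 and 41.9 to 43.5 CPM in 6T-CEM and 70.6 to 71.9 and 86.0 to 86.7 CPM in J.gamma1, most of it from CD79A, while HBB had 0 counts in every library. Both sums were higher with sh-LDB1, and their part in the results below was not tested.

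CDKN1B, which encodes p27, was higher with sh-LDB1 in both lines. It lies on chromosome 12 from 12685498 to 12722369. In 6T-CEM it stood at 91.4 and 85.5 CPM with sh-NC against 172 and 144 CPM with sh-LDB1 (log2 fold change 0.84, SE 0.081). In J.gamma1 it stood at 203 and 193 CPM with sh-NC against 291 and 292 CPM with sh-LDB1 (log2 fold change 0.56, SE 0.048). No library with sh-LDB1 overlapped the control libraries of its line, and the control level of J.gamma1 was above both sh-LDB1 libraries of 6T-CEM. The 6T-CEM value rests on sh-LDB1 libraries that lay apart from each other: it was 0.71 without replicate 1 and 0.96 without replicate 2. These are bulk RNA samples, in which a shift in the share of cells in each phase of the cycle and a shift in RNA per cell cannot be told apart.

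CDKN1A, which encodes p21 and is the best known p53 target of the cell cycle, was scarce and went opposite ways. It lies on chromosome 6 from 36676460 to 36687337. The 6T-CEM libraries held 9 and 15 counts with sh-NC against 41 and 30 with sh-LDB1, or 0.346 and 0.557 CPM against 1.41 and 1.05 CPM. In J.gamma1 the counts were 152 and 177 with sh-NC against 79 and 65 with sh-LDB1, or 4.79 and 5.61 CPM against 2.82 and 2.21 CPM. The log2 fold change was 1.43 (SE 0.479) in 6T-CEM and -1.04 (SE 0.230) in J.gamma1, without overlap of the groups in either line. The lowest level in J.gamma1 was still above the highest in 6T-CEM. Without 1 library at a time the value in 6T-CEM ranged from 1.14 to 1.82. In J.gamma1 it ranged from -1.23 to -0.87 and came closer to 0 than 1 log2 unit without sh-NC replicate 2 (-0.93) or sh-LDB1 replicate 2 (-0.87).

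CDKN1C, which encodes p57 and is an imprinted gene, lies on chromosome 11 from 2883213 to 2885775. J.gamma1 held 191 and 215 counts of it with sh-NC against 36 and 43 with sh-LDB1, that is 6.02 and 6.82 CPM against 1.29 and 1.46 CPM. The log2 fold change of -2.21 (SE 0.229) was the largest in size among the members. In 6T-CEM the libraries held 4 and 3 counts with sh-NC against 0 and 3 with sh-LDB1, which was too few for the filter on low counts, so no fold is given.

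The INK4 gene CDKN2C, which encodes p18, was the most abundant inhibitor per kilobase of canonical transcript in every group. It lies on chromosome 1 from 50960745 to 50974634. In 6T-CEM its level was 161 and 156 CPM with sh-NC against 269 and 273 CPM with sh-LDB1 (log2 fold change 0.78, SE 0.054). In J.gamma1 the levels were 187 and 181 CPM against 212 and 224 CPM (log2 fold change 0.25, SE 0.049). The groups did not overlap in either line, and the 6T-CEM libraries with sh-LDB1 were the highest of all 8.

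CDKN2D, which encodes p19 of the INK4 family, went opposite ways in the lines. It lies on chromosome 19 from 10566460 to 10569059. Its level in 6T-CEM was 69.7 and 71.6 CPM with sh-NC against 88.1 in both libraries with sh-LDB1 (log2 fold change 0.32, SE 0.066). In J.gamma1 it was 79.2 and 79.3 CPM with sh-NC against 58.1 and 60.7 CPM with sh-LDB1 (log2 fold change -0.41, SE 0.061). The control level of J.gamma1 was above that of 6T-CEM, and with sh-LDB1 this order was the other way round. The remaining INK4 genes were barely counted: CDKN2B had 0 counts in all 8 libraries and CDKN2A had 2 counts in 1 library and 0 in the others. A count of 0 allows up to 3 counts per library, which is 0.0945 to 0.115 CPM, and these limits cover counting error only.

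**Figure D1:**
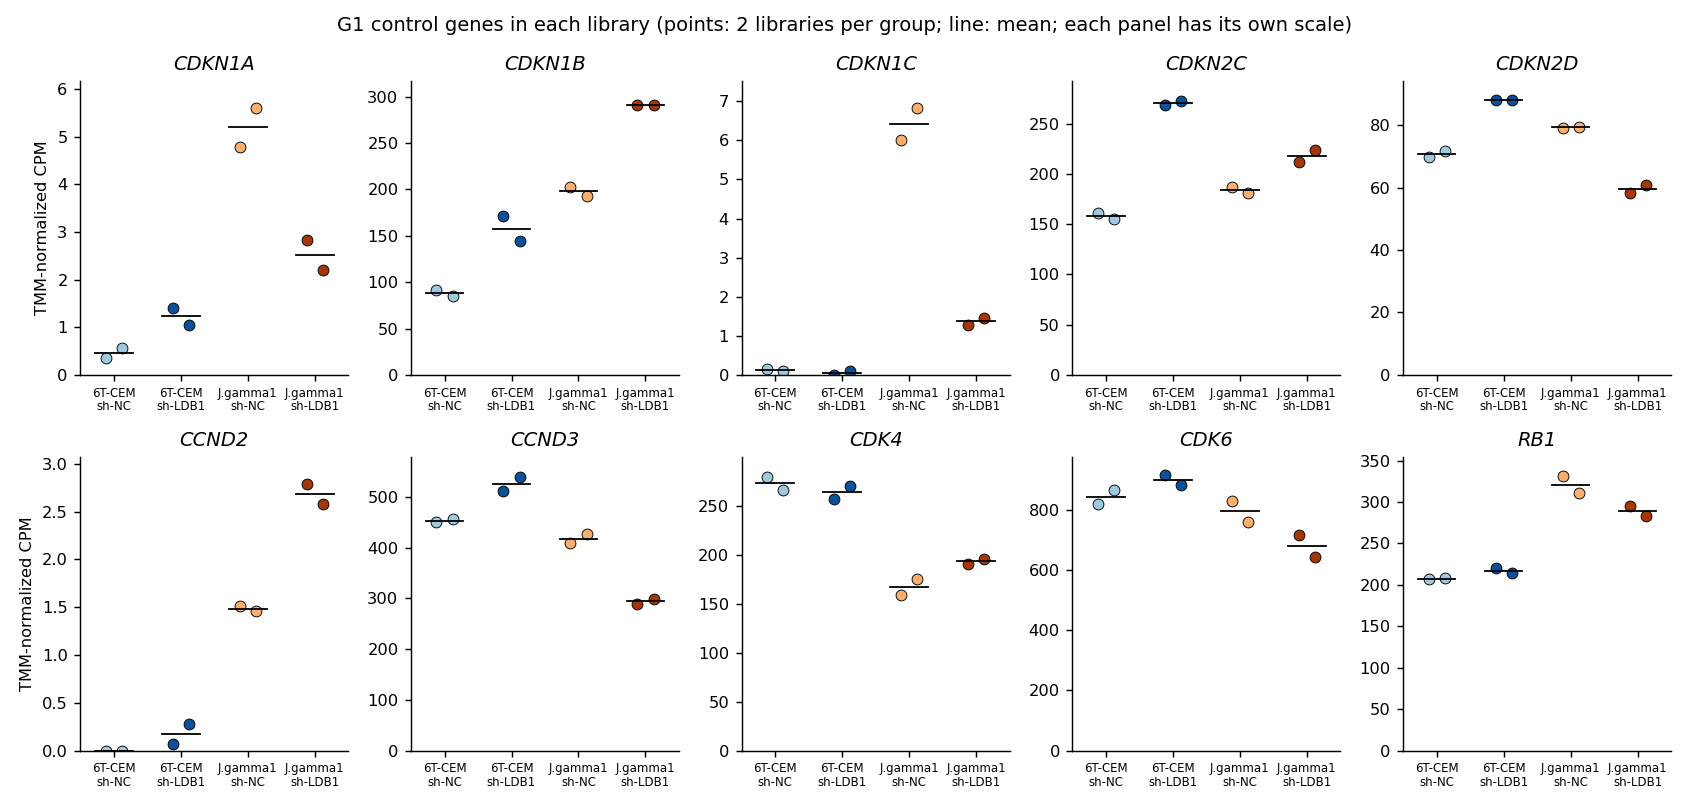
TMM-normalized CPM of the 10 members in each library, 1 panel per gene with its own axis from 0; points are the 2 libraries of a group and the line is their mean. CDKN1B and CDKN2C stood higher with sh-LDB1 in both lines, while CDKN1A, CDKN2D and CCND3 stood higher in 6T-CEM and lower in J.gamma1.

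CCND3 was the D cyclin of both lines. It lies on chromosome 6 from 41934934 to 42050357. Its level in 6T-CEM was 451 and 456 CPM with sh-NC against 512 and 539 CPM with sh-LDB1 (log2 fold change 0.22, SE 0.053). In J.gamma1 it was 408 and 426 CPM against 290 and 298 CPM (log2 fold change -0.50, SE 0.044). The groups did not overlap in either line.

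CCND2 was near the limit of detection, on chromosome 12 from 4269771 to 4305353. It had 0 counts in both 6T-CEM libraries with sh-NC against 2 and 8 with sh-LDB1, below the filter. The J.gamma1 controls held 48 and 46 counts against 78 and 76 with sh-LDB1, or 1.51 and 1.46 CPM against 2.79 and 2.58 CPM (log2 fold change 0.86, SE 0.276). So in J.gamma1 the scarce D cyclin was higher and the abundant D cyclin lower with sh-LDB1. CCND3 made up 99.9% and CCND2 the rest of their summed level per kilobase in J.gamma1 with sh-NC, and 99.7% with sh-LDB1. CCND1, the third D cyclin, had at most 3 counts in any library.

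The kinases and RB1 had the smallest changes. CDK4 lies on chromosome 12 from 57747727 to 57756013, and stood at 280 and 266 CPM with sh-NC against 257 and 270 CPM with sh-LDB1 in 6T-CEM, where the groups overlapped (log2 fold change -0.047, SE 0.055). In J.gamma1 it stood at 159 and 175 CPM against 191 and 196 CPM (log2 fold change 0.21, SE 0.055) without overlap. CDK6 lies on chromosome 7 from 92604921 to 92836573, and stood at 819 and 865 CPM against 916 and 883 CPM in 6T-CEM (log2 fold change 0.099, SE 0.053). In J.gamma1 it stood at 828 and 760 CPM against 715 and 644 CPM (log2 fold change -0.22, SE 0.063). The groups of CDK6 did not overlap, but in J.gamma1 the value was -0.14 without sh-LDB1 replicate 2. Both kinases share exon sequence with a gene on the opposite strand, and the library kit named in the labels does not mark strand. CDK4 shares 1369 bases with TSPAN31, which had 89 to 155 counts in 6T-CEM and 14 to 20 in J.gamma1. CDK6 shares 86 bases with CDK6-AS1, which had 624 to 710 counts in 6T-CEM, and in J.gamma1 306 and 319 with sh-NC against 100 and 118 with sh-LDB1. Reads in these shared bases cannot be told apart. The same holds for 617 bases that CDKN2C and 146 that CDKN1A share with an antisense RNA, and for 999 that CCND2 shares with a gene on its own strand, none of which was counted here.

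RB1, the pocket protein that the kinases phosphorylate, lies on chromosome 13 from 48303744 to 48599436. In 6T-CEM its level was 207 and 208 CPM with sh-NC against 220 and 214 CPM with sh-LDB1 (log2 fold change 0.071, SE 0.053). In J.gamma1 it was 332 and 310 CPM against 296 and 284 CPM (log2 fold change -0.14, SE 0.050). Neither pair of groups overlapped, and without sh-NC replicate 1 the value in J.gamma1 was -0.094.

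**Figure D2:**
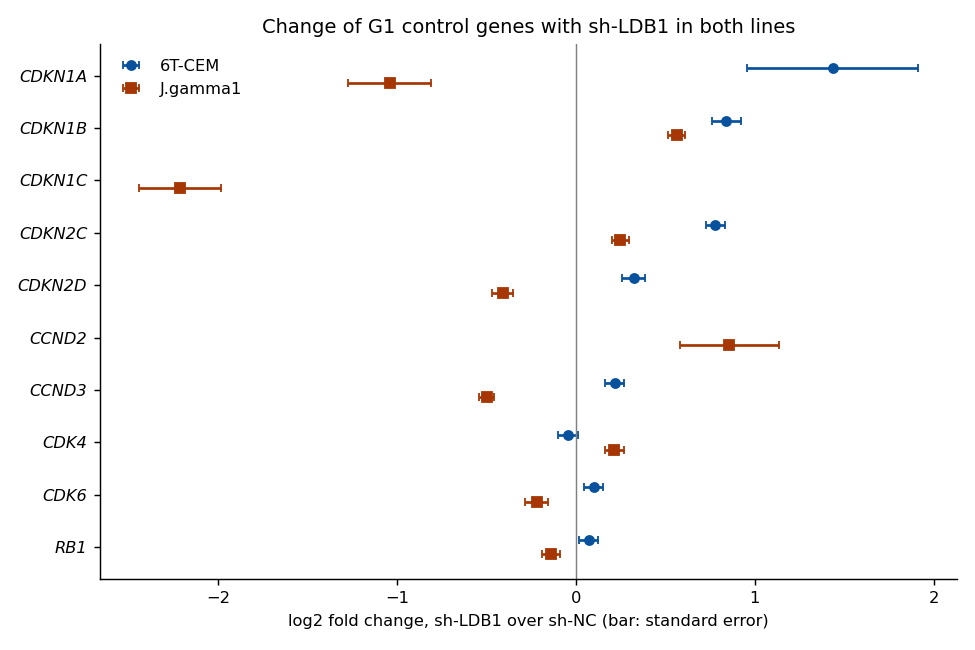
Log2 fold change of each member, sh-LDB1 over sh-NC, in 6T-CEM (circles) and J.gamma1 (squares); bars are standard errors. CDKN1C and CCND2 have no point in 6T-CEM, where they were below the filter. There 4 of the 4 inhibitors fitted lay above 0, as did 50.3% of all genes tested, and the members were chosen with these changes known.

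Set against all genes, the members read as follows. In 6T-CEM 8 of the 10 passed the filter on low counts. Of these, 5 were among the genes called higher at an adjusted p under 0.05, which took in 15.1% of the 16059 genes tested, and 0 were among the 16.2% called lower. These 5 were CDKN1A, CDKN1B, CDKN2C, CDKN2D and CCND3, and CDKN1A was the member among the 5.13% of genes that also passed a log2 fold change of 1. In 7 of the 8 all sh-LDB1 libraries lay above the controls, and 65.3% of all genes tested had groups without overlap in either direction. In J.gamma1 all 10 passed the filter. There 4 members, CDKN1B, CDKN2C, CCND2 and CDK4, were among the 25.0% of 17215 genes called higher, and 6, CDKN1A, CDKN1C, CDKN2D, CCND3, CDK6 and RB1, were among the 26.5% called lower. CDKN1A and CDKN1C were among the 13.9% past both thresholds, and none of the 10 overlapped, as 75.9% of all genes did not. For 5 of the 8 members fitted in both lines, CDKN1A, CDKN2D, CCND3, CDK6 and RB1, the sh-LDB1 libraries lay above the controls in 6T-CEM and below them in J.gamma1 without overlap, as for 6.56% of the 14902 genes fitted in both lines. The members had a median log2 fold change of 0.27 in the first line and -0.18 in the second, beside 0.0027 and -0.00025 over all genes tested. For the inhibitors alone it was 0.81 (4 genes) and -0.41 (5 genes). The gene sets differ: both J.gamma1 medians take in CDKN1C (-2.21), and that of all members CCND2 (0.86), neither fitted in 6T-CEM. The 4 inhibitors fitted in both lines were split in J.gamma1: CDKN1A -1.04, CDKN2D -0.41, CDKN2C 0.25 and CDKN1B 0.56. The choice of members used these same contrasts, so nothing follows from the counts.

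The change of a member in J.gamma1 minus that in 6T-CEM, from 1 fit to all 8 libraries, was negative for 7 of the 8 members that passed the filter in both lines. The share of negative values over all genes is not given here. The members were chosen with these contrasts known, so nothing follows from this count. No difference is given for CDKN1C and CCND2, which were below it in 6T-CEM. The difference on the log2 scale was -2.48 (SE 0.463) for CDKN1A, -0.74 (SE 0.078) for CDKN2D, -0.72 (SE 0.063) for CCND3, -0.53 (SE 0.067) for CDKN2C, -0.32 (SE 0.083) for CDK6 and -0.21 (SE 0.068) for RB1. These 6 were among the genes whose change differed between the lines at an adjusted p under 0.05, 24.4% of 18552, as was CDK4 with a difference of 0.26 (SE 0.078). For CDKN1B the difference was -0.28 (SE 0.104), and -0.14 without 6T-CEM sh-LDB1 replicate 1. The lines differ in LDB1 knockdown too: the change of LDB1 was 0.70 log2 units smaller in size in J.gamma1 (edgeR adjusted p = 0.000237), and its part in these differences was not tested.

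Between the control cells of the lines, 4 members were among the 32.4% of genes that differed past both thresholds, and all 4 were higher in J.gamma1. CDKN1B was 2.24-fold higher in J.gamma1 (log2 difference 1.16, SE 0.075) and CDKN1A 11.4-fold (log2 difference 3.51, SE 0.343). For CDKN1C, with 406 counts against 7, the ratio was 48.5 with an exact 95% interval of 23.3 to 121 from counting alone. CCND2, with 94 counts against 0, was at least 26.2-fold higher, taking the floor of 3 counts over the group. CDK4 was the member furthest the other way, 1.63-fold higher in 6T-CEM. RB1 was higher in J.gamma1 by 0.63 log2 units (SE 0.048), and CDKN2C, CDKN2D, CCND3 and CDK6 differed by 0.22, 0.17, -0.12 and -0.084, J.gamma1 minus 6T-CEM. The lines were counted in separate tables, so a difference of line and one of sequencing run or table cannot be told apart.

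Levels of different genes were compared per kilobase of canonical transcript. Counts take in every transcript of a gene, so the order rests on this choice of length. The canonical transcript has 995 bases for CDKN2C and 2026 for CCND3, against 3018 and 5761 exon bases over all transcripts. By exon bases over all transcripts, CDKN2C and CCND3 overlapped in 6T-CEM with sh-LDB1, so their order there depends on the length used. Whether the rest of the order holds with other lengths was not tested. In 6T-CEM with sh-NC the order was CCND3 at 224 ± 1.66 CPM per kilobase (SD, n = 2), CDKN2C at 159 ± 3.97, CDK4 at 146 ± 5.06, CDK6 at 72.2 ± 2.81, CDKN2D at 49.6 ± 0.916, RB1 at 43.5 ± 0.122 and CDKN1B at 36.7 ± 1.73. With sh-LDB1 CDKN2C came before CCND3, at 272 ± 2.66 and 259 ± 9.38, and CDKN1B moved up to 65.5 ± 8.15, where it overlapped CDKN2D at 61.8 ± 0.0148. In J.gamma1 with sh-NC the order opened with CCND3 at 206 ± 6.17, CDKN2C at 185 ± 4.41, CDK4 at 89.7 ± 6.14 and CDKN1B at 82.1 ± 3.05, and CDK6 at 68.1 ± 4.11 overlapped RB1 at 67.3 ± 3.14. With sh-LDB1 CDKN2C led there too, at 219 ± 8.58, followed by CCND3 at 145 ± 2.80, CDKN1B at 121 ± 0.0782 and CDK4 at 104 ± 1.87. So by canonical length CDKN2C and CCND3 changed places at the top in both lines. CDKN1A, CDKN1C and CCND2 stayed under 4 CPM per kilobase in every group. All other neighbours in these orders named here did not overlap.

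**Figure D3:**
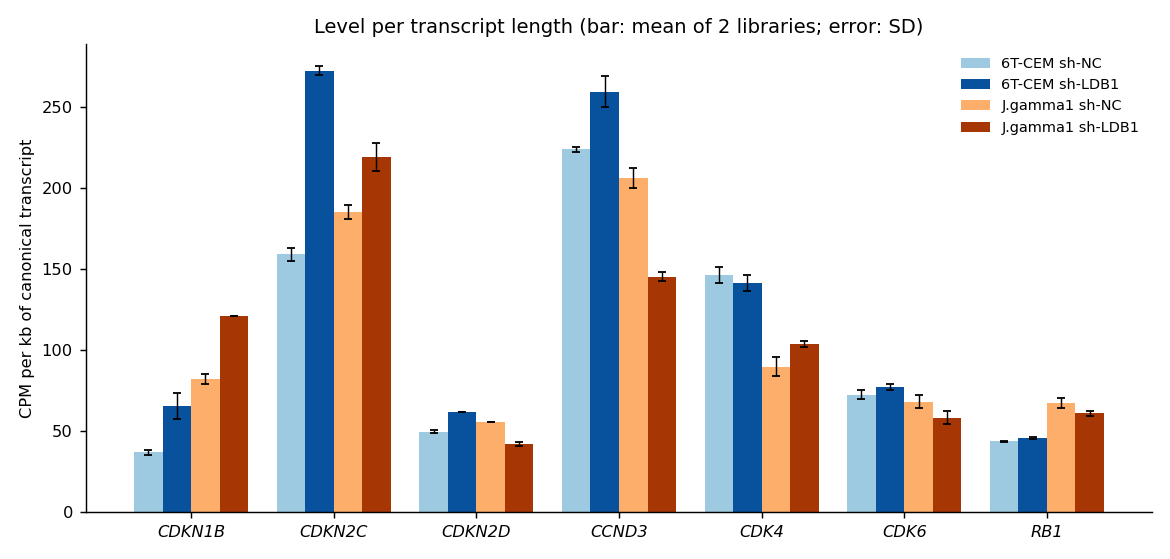
Level of the 7 members above 10 CPM per kilobase of canonical transcript in every group. Bars are means of 2 libraries and error bars are SD. By this length CDKN2C stood above CCND3 with sh-LDB1 in both lines, at 272 against 259 in 6T-CEM and 219 against 145 in J.gamma1. By exon bases over all transcripts CDKN2C and CCND3 overlapped in 6T-CEM with sh-LDB1.

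Sums over each family were set against the sum of CDK4 and CDK6, all in CPM per kilobase of canonical transcript. The ratios rest on that choice of length too. The INK4 sum over the kinases was 0.958 and 0.952 in 6T-CEM with sh-NC against 1.54 and 1.52 with sh-LDB1. In J.gamma1 this ratio was 1.56 and 1.49 against 1.55 and 1.67, and the groups overlapped. The Cip/Kip sum over the kinases was 0.173 and 0.165 against 0.332 and 0.273 in 6T-CEM, and 0.575 and 0.543 against 0.751 and 0.767 in J.gamma1. Nearly all of that sum was CDKN1B, at 99.2% of it in the 6T-CEM controls and 93.1% in those of J.gamma1. The D cyclin sum over the kinases was 1.01 and 1.04 against 1.17 and 1.21 in 6T-CEM, and 1.29 and 1.32 against 0.877 and 0.920 in J.gamma1. Relative to the kinases, the inhibitor families were thus higher with sh-LDB1 without overlap in 6T-CEM, and in J.gamma1 only the Cip/Kip family was, while the D cyclins went opposite ways. CDK4 over CDK6 was 2.14 and 1.92 against 1.76 and 1.91 in 6T-CEM, and 1.20 and 1.44 against 1.67 and 1.90 in J.gamma1. These ratios are of RNA, and of members chosen with their changes known.

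**Figure D4:**
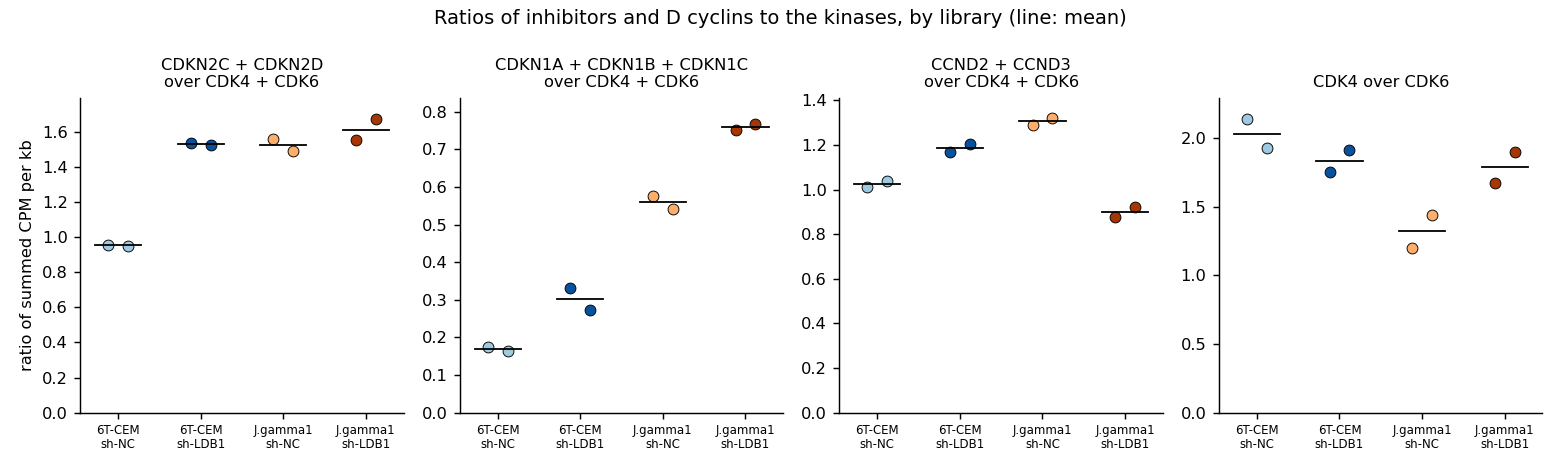
Ratios of summed CPM per kilobase in each library, with the line at the mean of 2 libraries and axes from 0. The mean INK4 ratio was 0.955 with sh-NC and 1.53 with sh-LDB1 in 6T-CEM and 1.53 and 1.61 in J.gamma1, and the D cyclin ratio was 1.31 with sh-NC and 0.899 with sh-LDB1 in J.gamma1.

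The other genes of G1 control were taken from 7 textbook lists with 85 genes, of which 81 were tested in each line. These lists too were chosen with earlier results of these data known. Their counts and adjusted p-values, here and below, are therefore a description and not an independent test. In 6T-CEM 17 were higher and 27 lower at an adjusted p under 0.05 (edgeR), beside 15.1% and 16.2% of all genes. In J.gamma1 15 were higher and 41 lower, beside 25.0% and 26.5% of all genes. In both lines 8 were higher and 22 lower, and 7 were called in opposite directions. These counts were 5, 11 and 3 without 6T-CEM sh-NC replicate 1 and 5, 13 and 1 without 6T-CEM sh-NC replicate 2. The 7 called in opposite directions were 4 without J.gamma1 sh-NC replicate 1 or without J.gamma1 sh-LDB1 replicate 2. All lists together had a median log2 fold change of 0.019 in 6T-CEM, against -0.26 in J.gamma1. The 6T-CEM count of 44 was 27 (11 higher, 16 lower) without sh-NC replicate 1 and 25 (9 higher, 16 lower) without sh-NC replicate 2.

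The cyclin E genes and CDC25A fell in both lines. Of the 9 genes of this list, 2 were higher and 4 lower in 6T-CEM, and 1 was higher and 5 lower in J.gamma1, with medians of 0.035 and -0.69. CDC25A, the phosphatase that activates CDK2, stood at 148 and 152 CPM with sh-NC against 79.1 and 85.8 with sh-LDB1 in 6T-CEM, and at 133 and 140 against 52.2 and 49.5 CPM in J.gamma1. It fell by 0.86 and 1.42 on the log2 scale (edgeR adjusted p = 1.74e-07 and 1.87e-08). CCNE1, a partner of CDK2, fell by 1.15 in 6T-CEM (adjusted p = 4.59e-05) and by 0.75 in J.gamma1 (adjusted p = 0.00112). CCNE2, its second cyclin E, fell by 0.67 in 6T-CEM (adjusted p = 0.00253) and by 1.18 in J.gamma1 (adjusted p = 1.85e-06). The CCNE2 call in 6T-CEM was lost without sh-NC replicate 2 (adjusted p = 0.0573). CDK2 itself fell by 0.75 in J.gamma1 (adjusted p = 5.83e-07), and in 6T-CEM its change of 0.10 did not pass (adjusted p = 0.18).

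The E2F targets of S-phase entry, which encode replication licensing factors and enzymes of nucleotide synthesis, were mostly lower. In 6T-CEM 8 of 12 fell and 1, TK1, rose, with a median log2 fold change of -0.22. In J.gamma1 all 12 fell, with a median of -0.44. MCM2, a subunit of the replicative helicase, fell by 0.49 in 6T-CEM (adjusted p = 9.35e-06), from 457 and 460 CPM to 312 and 338. PCNA, the sliding clamp of the polymerases, fell by 0.40 (adjusted p = 7.30e-05). In J.gamma1 the largest changes were in CDC6, which loads the helicase, from 147 and 149 to 82.4 and 82.2 CPM (fell by 0.84, adjusted p = 2.75e-07), TYMS (fell by 0.63, adjusted p = 6.59e-07) and CDT1 (fell by 0.62, adjusted p = 9.40e-06). TK1 differed between the lines by -0.54 (adjusted p = 0.00113), but its rise of 0.21 in 6T-CEM was lost without sh-NC replicate 1 (adjusted p = 0.0603), sh-NC replicate 2 (adjusted p = 0.143) or sh-LDB1 replicate 2 (adjusted p = 0.168).

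Among pocket proteins, E2F factors and their partners, 4 of 16 were higher and 2 lower in 6T-CEM, and 2 were higher and 7 lower in J.gamma1. E2F1, the archetypal activator, stood at 109 and 107 CPM with sh-NC against 47.2 and 51.1 with sh-LDB1 in J.gamma1, where it fell by 1.13 (adjusted p = 1.42e-07). In 6T-CEM it fell by 0.29 (adjusted p = 0.00310), a call lost without sh-NC replicate 1 (adjusted p = 0.0572). E2F7, a repressor, rose by 1.01 in 6T-CEM, from 59.2 and 60.2 to 124 and 117 CPM (adjusted p = 4.48e-08), and E2F4, which acts with pocket proteins in resting cells, rose by 0.43 in J.gamma1 (adjusted p = 0.000131). E2F8 fell by 0.96 in J.gamma1 (adjusted p = 8.24e-06), and its change differed between the lines by -1.18 (adjusted p = 2.65e-05). E2F5 and LIN54 also differed between the lines, by 0.79 (adjusted p = 0.00221) and -0.53 (adjusted p = 0.0109, and 0.0507 without J.gamma1 sh-LDB1 replicate 1). The 6T-CEM rise of E2F8 by 0.21 (adjusted p = 0.042) was lost when any 1 of the 4 libraries was left out, with an adjusted p between 0.0771 and 0.187, and in 6T-CEM the E2F5 call was lost without sh-NC replicate 2 (adjusted p = 0.104). In J.gamma1 the E2F5 call was lost without sh-NC replicate 1, sh-LDB1 replicate 1 or sh-LDB1 replicate 2 (adjusted p = 0.141, 0.0654 and 0.0518). LIN54, at 0.27 in 6T-CEM and -0.26 in J.gamma1, lost its 6T-CEM call without sh-NC replicate 1, sh-NC replicate 2 or sh-LDB1 replicate 1 (adjusted p = 0.0925, 0.0818 and 0.144). Its J.gamma1 call was lost without sh-NC replicate 1 (log2 fold change -0.11, adjusted p = 0.325), sh-LDB1 replicate 1 (adjusted p = 0.217) or sh-LDB1 replicate 2 (adjusted p = 0.0838).

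Genes for the turnover of p27, the D cyclins and, through FBXW7, cyclin E did not move one way. In 6T-CEM 2 of 14 were higher and 4 lower, and in J.gamma1 4 were higher and 4 lower, with medians of -0.046 and 0.11. SKP2, the receptor that marks p27 for destruction, fell in both lines. It went from 157 and 160 to 131 and 123 CPM in 6T-CEM (fell by 0.31, edgeR adjusted p = 0.000998). In J.gamma1 it went from 104 and 108 to 77.7 and 74.0 CPM (fell by 0.47, edgeR adjusted p = 3.86e-05). CDKN1B RNA was higher in both lines, p27 protein was not measured here, and a link between SKP2 and CDKN1B was not tested. FBXW7, the receptor for cyclin E, rose by 1.09 in 6T-CEM (adjusted p = 7.87e-08) and by 1.12 in J.gamma1 (adjusted p = 6.16e-08). DDB1, an adaptor of the CUL4 ligases, fell by 0.39 in 6T-CEM (edgeR adjusted p = 7.47e-05). GSK3B, a kinase that marks cyclin D for destruction, fell by 0.49 in J.gamma1 (edgeR adjusted p = 3.00e-05). GSK3B fell in 6T-CEM too, by 0.20 (edgeR adjusted p = 0.0355), a call lost in 6 of 11 alternatives. CKS1B, the cofactor of SKP2, and CUL1, its scaffold, changed in opposite ways, CKS1B by 0.25 in 6T-CEM and -0.37 in J.gamma1 (difference -0.62, adjusted p = 0.000297) and CUL1 by -0.28 and 0.35 (difference 0.63, adjusted p = 0.000146). In 6T-CEM the call of CKS1B was lost without sh-NC replicate 2 (adjusted p = 0.0831) and that of CUL1 without sh-NC replicate 1 (adjusted p = 0.0662).

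Of 8 genes of the FOXO and PI3K input to CDKN1B, 1 was higher and 2 lower in 6T-CEM, and 1 was higher and 4 lower in J.gamma1. AKT1, the kinase that keeps FOXO factors out of the nucleus, stood at 214 and 213 CPM with sh-NC against 114 and 117 with sh-LDB1 in J.gamma1 (fell by 0.88, adjusted p = 1.37e-07). FOXO4 fell by 1.19 and KLF2, a FOXO target of quiescent T cells, by 1.19 in J.gamma1 (adjusted p = 7.78e-06 and 2.52e-05). In 6T-CEM AKT1 fell by 0.24 (adjusted p = 0.00538) and FOXO4 by 0.35 (adjusted p = 0.0277), and both calls were lost without sh-NC replicate 2 (adjusted p = 0.0769 and 0.234) or sh-LDB1 replicate 1 (adjusted p = 0.0571 and 0.169).

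The p53 targets, to which CDKN1A belongs, were split. In 6T-CEM 6 of 21 rose and 7 fell, and in J.gamma1 7 rose and 9 fell, with medians of 0.021 and -0.020. BTG2, an antiproliferative gene, rose in both lines, from 15.8 and 18.0 to 56.9 and 58.9 CPM in 6T-CEM (1.78 on the log2 scale, adjusted p = 5.59e-09) and from 27.6 and 24.5 to 123 and 125 CPM in J.gamma1 (2.25 on the log2 scale, adjusted p = 3.95e-09). TNFRSF10B, a death receptor, rose by 1.51 in 6T-CEM (adjusted p = 0.00747), a call lost without sh-NC replicate 2 (adjusted p = 0.0752). In J.gamma1 TNFRSF10B rose too, by 0.70 (edgeR adjusted p = 5.30e-06). Its level in the control cells was 85.3-fold higher in J.gamma1 than in 6T-CEM. CCNG1 fell by 1.25 (edgeR adjusted p = 1.55e-07) and TP53I3 by 1.29 (edgeR adjusted p = 9.85e-06) in J.gamma1. CCNG1 fell by 0.39 in 6T-CEM too (edgeR adjusted p = 0.0385), a call lost in 4 of 11 alternatives. TP53I3 fell by 0.53 in 6T-CEM too (adjusted p = 0.0196), a call lost without either sh-NC library (adjusted p = 0.0712 and 0.120) or sh-LDB1 replicate 2 (adjusted p = 0.102). FAS, another death receptor, changed by -0.38 in 6T-CEM and 0.26 in J.gamma1 (difference 0.64, adjusted p = 0.00174). Its call was lost in 6T-CEM without sh-NC replicate 2 (adjusted p = 0.0594), and in J.gamma1 without sh-NC replicate 1 (adjusted p = 0.0989), sh-NC replicate 2 (adjusted p = 0.0640) or sh-LDB1 replicate 2 (adjusted p = 0.109). Of the remaining list of INK4, Cip/Kip-like and D cyclin genes 1 of 4 passed the filter, CDKN3, a phosphatase of CDK2, which rose by 0.63 in 6T-CEM (adjusted p = 6.69e-06).

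**Figure D5:**
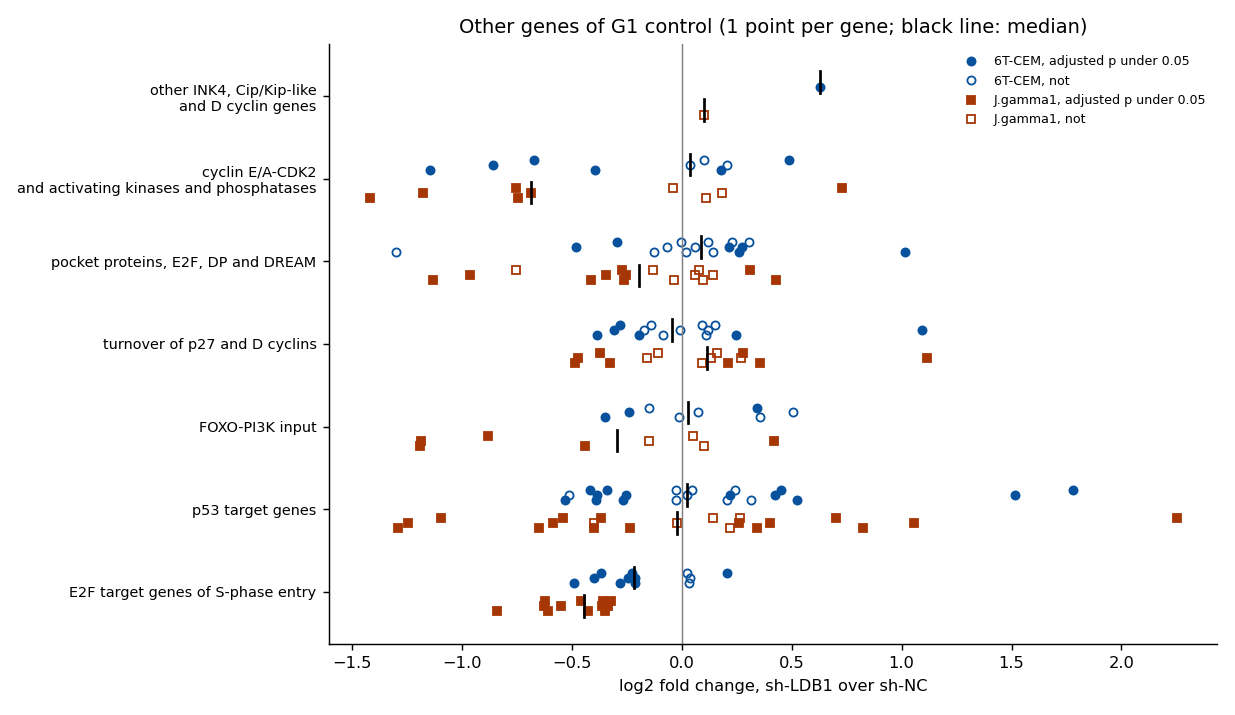
Log2 fold change, sh-LDB1 over sh-NC, of the 81 tested genes of the 7 lists in 6T-CEM (circles) and J.gamma1 (squares); filled points passed an adjusted p under 0.05 and black lines are medians. All 12 E2F targets lay below 0 in J.gamma1, at a median of -0.44, and the median in 6T-CEM was -0.22.

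The gene whose log2 CPM followed each member most closely over the 8 libraries, among 13087 genes with a mean of at least 1 CPM, had a Pearson r between 0.977 and 0.998. These genes were TRIM56 for CDKN1A, MYEF2 for CDKN1B, RMC1 for CDKN1C, BIRC5 for CDKN2C, MASTL for CDKN2D, UBE2Q1 for CCND2, TOR1A for CCND3, NOL11 for CDK4, CEP120 for CDK6 and SNX33 for RB1. The libraries come from 2 lines, so a gene that differs between the lines follows any member that does. The number of genes with an r over 0.9 ranged from 55 for CDKN2D and 77 for CDKN2C to 1948 for CDK4 and 2298 for RB1. BIRC5, which encodes survivin, and MASTL, a mitotic kinase, were thus the nearest to the members with the fewest followers, at an r of 0.990 and 0.977.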

How the data were processed

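RNA of 8 libraries, 2 in each of 4 groups, was analysed from 2 tables, 1 per line. The authors mapped paired reads with HISAT2 2.2.0 on hg38, ran StringTie and deposited raw whole-number counts for each gene and library. The annotation release, the handling of strand and the conversion of StringTie output to counts are not given in the sources used here. Every column of both tables belonged to a library of the series.

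Gene symbols came from GENCODE release 44 (40995 of 64252 genes matched a symbol), as did positions and transcript lengths. Each line was fitted by itself with edgeR 4.0.16 in R 4.3.3: TMM scaling, filterByExpr and the robust quasi-likelihood test, with p-values adjusted by Benjamini-Hochberg over every gene of the fit. Calls needed an adjusted p under 0.05, and a second count added an absolute log2 fold change over 1. Each standard error is the size of the log2 fold change divided by the root of F. The difference between the lines and the control levels come from 1 fit to all 8 libraries. Likeness of genes was computed on log2 of CPM plus 0.5.

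The members and the lists were chosen with earlier results of these data known. The genes named from the lists are the up to 3 largest changes per list and line at an adjusted p under 0.05 without overlap of the groups, and those called in opposite directions with a tested difference; 2 genes that met this rule are counted with their lists and not reported singly here. Replicates are separate samples in the labels, which do not say that they were separate cultures, so the p-values measure a spread that may be technical. Replicates varied by 9.68% (6T-CEM) and 9.16% (J.gamma1) as a biological coefficient of variation. Alternatives were other scalings (RLE, upper quartile), other filters, DESeq2 1.42.0, the replicate number as a block, 1 fit to all libraries and the omission of each library in turn. The steps were tested on simulated counts with known changes. Intervals and floors cover counting error only.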

Additional observations from a re-analysis of the deposited data

Results flagged for a closer look

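For 5 of the 8 members fitted in both lines every sh-LDB1 library lay above the controls in 6T-CEM and below them in J.gamma1, as for 6.56% of the 14902 genes fitted in both lines. For CDK6 and RB1 the 6T-CEM changes, 0.099 and 0.071, were not among the calls at an adjusted p under 0.05. The difference of the log2 fold changes, J.gamma1 minus 6T-CEM, was -2.48 for CDKN1A, -0.74 for CDKN2D, -0.72 for CCND3, -0.32 for CDK6 and -0.21 for RB1. As the members were chosen with these changes known, the values are a description and no p is given for them.

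LDB1 itself differed between the lines, by 0.70. Of 31 named genes of the lists, 24 differed between the lines at an adjusted p under 0.05 in edgeR's test of the difference, and for 19 of these the value was negative. The naming rule chose 7 of the genes partly by this difference and the others by the size of their change, so the count is partly set by the rule. Over all 81 listed genes 40 differed (49.4%), 32 of them with a negative value, beside 24.4% of all 18552 genes. The lists were chosen with earlier results of these data known, so this share is a description too. The share of negative values over all genes is not given here. Negative differences were found for KLF2 (-1.55), E2F8 (-1.18), E2F7 (-0.96), CCNG1 (-0.86), CDK2 (-0.86), E2F1 (-0.84), FOXO4 (-0.84), TNFRSF10B (-0.82), TP53I3 (-0.77), CDT1 (-0.66), AKT1 (-0.64), CKS1B (-0.62), CDC25A (-0.56), CDC6 (-0.56), TK1 (-0.54), LIN54 (-0.53), CDKN3 (-0.53), TYMS (-0.40) and GSK3B (-0.29). Positive differences were found for E2F5 (0.79), FAS (0.64), CUL1 (0.63), BTG2 (0.47) and DDB1 (0.28). The TNFRSF10B difference was -0.43 without 6T-CEM sh-NC replicate 2. Without 1 library at a time the adjusted p of the difference passed 0.05 for GSK3B, KLF2, LIN54 and TNFRSF10B. It reached 0.123 for GSK3B without 6T-CEM sh-NC replicate 1, 0.0614 for KLF2 without 6T-CEM sh-LDB1 replicate 1, 0.0507 for LIN54 without J.gamma1 sh-LDB1 replicate 1 and 0.348 for TNFRSF10B without 6T-CEM sh-NC replicate 2.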

How the results depend on the processing

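With 2 libraries per group a fit that leaves 1 out assumes that the lone library varies like the others. Of the 198 alternative values of the members' changes, 187 moved by less than the standard error of that change in the main fit. Of the rest, 11 moved by more, and 0 values changed sign within a line. That standard error is wide for scarce genes, at 0.479 for CDKN1A in 6T-CEM. Under upper-quartile scaling the J.gamma1 changes of CDKN1B, CDKN2C and CCND3 were 0.61, 0.30 and -0.45. In 6T-CEM DESeq2 called 518 genes in place of 824, and without the fold threshold the lines had 5023 and 8870 called genes. With 1 library left out the listed genes called in 6T-CEM numbered 25 to 37 (9 to 13 higher, 16 to 24 lower); the cause was not tested. Of the named calls, 11 of 28 in the first line and 25 of 28 in the second were kept in every alternative. Small values changed sign without 1 library: KLF2 in 6T-CEM (-0.16 to 0.73), E2F7 in J.gamma1 (-0.016 to 0.14), and the differences between the lines for FBXW7 (-0.074 to 0.13) and MCM2 (-0.018 to 0.10). The fitted difference for CDKN1C, with 0 to 4 counts per 6T-CEM library and not reported as a result, went from -0.94 to 2.77 without 6T-CEM sh-LDB1 replicate 2. The replicate numbers share only a number (correlation of deviations -0.025 and -0.016). With them as a replicate block 801 genes were called in 6T-CEM, 2240 in J.gamma1, 4587 for the difference and 5566 for the control cells, with 43 and 57 of the listed genes. Genes with few counts, CDKN1A and CCND2 among them, are limited by depth.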
